A study of Mus musculus with 8 samples.

Results

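Selectins are adhesion receptors that let leukocytes tether and roll on vessel walls and on one another, and the genes described here encode 1 selectin and 4 proteins that make or carry selectin ligands. They were Selp (P-selectin), Selplg (PSGL-1, the main protein that P-selectin binds), Gcnt1 (the core 2 branching enzyme), Fut7 (a fucosyltransferase) and St3gal4 (a sialyltransferase). They were chosen by gene symbol, with earlier results of these data known. The symbols were matched through Entrez identifiers, and all 5 were found among the 11723 genes of the deposited table. All 5 also passed the filter on low values, so that they stood among 11530 genes tested.

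The study set CD8 T cells from mice lacking interleukin-2 (IL-2-KO) against those from WT mice. Both groups were BALB/c, 12 days of age, and the labels name no treatment in either. Sorted cells of peripheral lymph nodes numbered 26.7, 42.6, 1.1 and 0.4 (times 1e6) for IL-2-KO replicates 1 to 4. They numbered 115, 28.7, 1.3 and 1.3 (times 1e6) for WT replicates 1 to 4, which pooled 5, 5, 3 and 2 mice. The labels give no pooling for IL-2-KO and do not say whether the allele is lost in every cell, and the series' design text also names spleen and heterozygous mice among the controls. It calls the replicates biological.

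A selectin binds a sugar structure, sialyl Lewis X, and not the bare protein. On PSGL-1 this structure is built on O-linked chains: Gcnt1 starts a branch on the core 1 chain, galactose and N-acetylglucosamine lengthen the branch, an enzyme of the St3gal family caps it with sialic acid, and Fut7 adds the fucose last. St3gal1 can cap the same core 1 chain before it is branched, so it competes with Gcnt1 for one substrate. Naive T cells carry PSGL-1 with little of this structure, and activated CD8 T cells are known to make it and to bind P-selectin. P-selectin itself is best known from platelets and endothelial cells.

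Library depth over the listed genes lay between 14.8 and 18.4 (times 1e6 counts) in IL-2-KO and between 11.9 and 17.4 (times 1e6 counts) in WT. Values are counts per 1e6 of TMM-scaled library size (CPM), and 1 CPM stood for 11.9 to 18.6 counts. The CD8 T cell markers present, 7 of 8 listed, summed to between 5269 and 6278 CPM in IL-2-KO and between 5993 and 6719 CPM in WT. Natural killer cell markers (2 of 6 present) summed to between 3.85 and 14.3 CPM in IL-2-KO and between 1.32 and 5.93 CPM in WT, with Klrb1c and Klre1 as the markers present. Klre1 passed as higher, with 2.01, 4.70, 5.91 and 13.1 CPM in IL-2-KO and 1.14, 3.12, 0.576 and 0.844 CPM in WT (limma, Benjamini-Hochberg adjusted p = 0.0352), and the part of such cells in the rises of Gcnt1, Tbx21 and Eomes was not tested. Some libraries stood apart from their group. Myeloid markers (5 of 12 present) summed to 449.7 CPM in IL-2-KO replicate 3 and 129.9 CPM in WT replicate 2, against 39.7 to 50.4 CPM in the other IL-2-KO libraries and 35.6 to 39.7 CPM in the other WT libraries, and the same 2 libraries had the highest CD4 and regulatory T cell marker sums (70.1 and 65.9 CPM). Their deviations from the group means correlated at 0.655 across genes. Within IL-2-KO, replicates 2 and 4 resembled each other more than they resembled replicates 1 and 3. Il2 averaged 6.28 ± 1.93 CPM in IL-2-KO and 5.88 ± 0.268 CPM in WT (SD, n = 4 each). Values are summed over a gene's exons, so an Il2 level leaves the genotype unchecked.

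Of the 5 genes, Gcnt1, Selp and Fut7 rose in IL-2-KO CD8 T cells and none fell, while Selplg and St3gal4 did not pass the test. The call was a Benjamini-Hochberg adjusted p under 0.05 from limma on log2(CPM + 0.5), and 3 of 5 passed as higher, where 11.1% of all genes tested did and 8.03% passed as lower. The rise was 12.8-fold for Gcnt1, 2.96-fold for Selp and 2.64-fold for Fut7. At least 2-fold higher and passing was 4.14% of all genes tested, and at least 8-fold higher was 0.243%. The median log2 change was 1.40 over the 5 genes and -0.01 over all genes tested. The groups did not overlap for Gcnt1 and Selp, which is 2 of 5 genes, where 12.9% of all genes tested were higher in IL-2-KO without overlap. The 5 genes were chosen with earlier results of these data known, so their shares beside those of all genes are a description and no test. In RNA from whole cell populations, more cells carrying a transcript and more transcript per cell cannot be told apart.

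**Figure D1:**
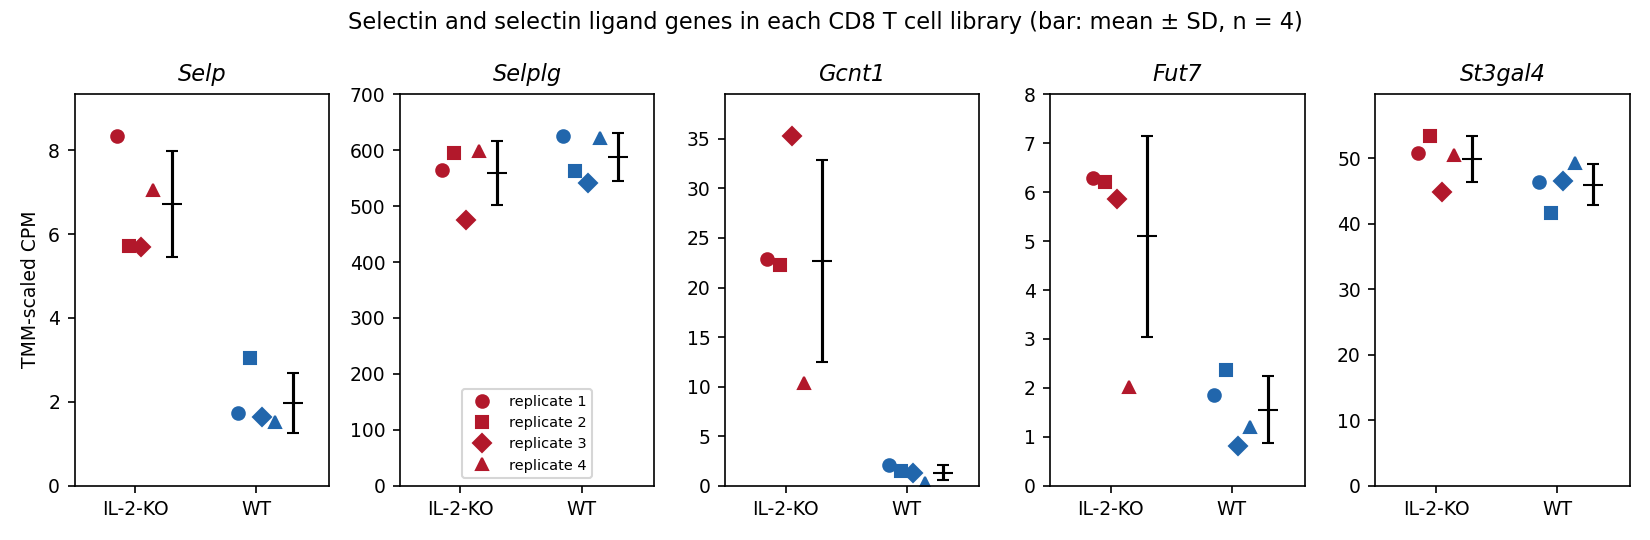
TMM-scaled CPM of Selp, Selplg, Gcnt1, Fut7 and St3gal4 in each of 4 IL-2-KO and 4 WT libraries, with 1 symbol per replicate number and the mean ± SD (n = 4) beside each group; each panel has its own scale starting at 0. Gcnt1 and Selp are separated between the groups, and 1 IL-2-KO library of Fut7, replicate 4 at 2.01 CPM, lies among the WT libraries.

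**Figure D2:**
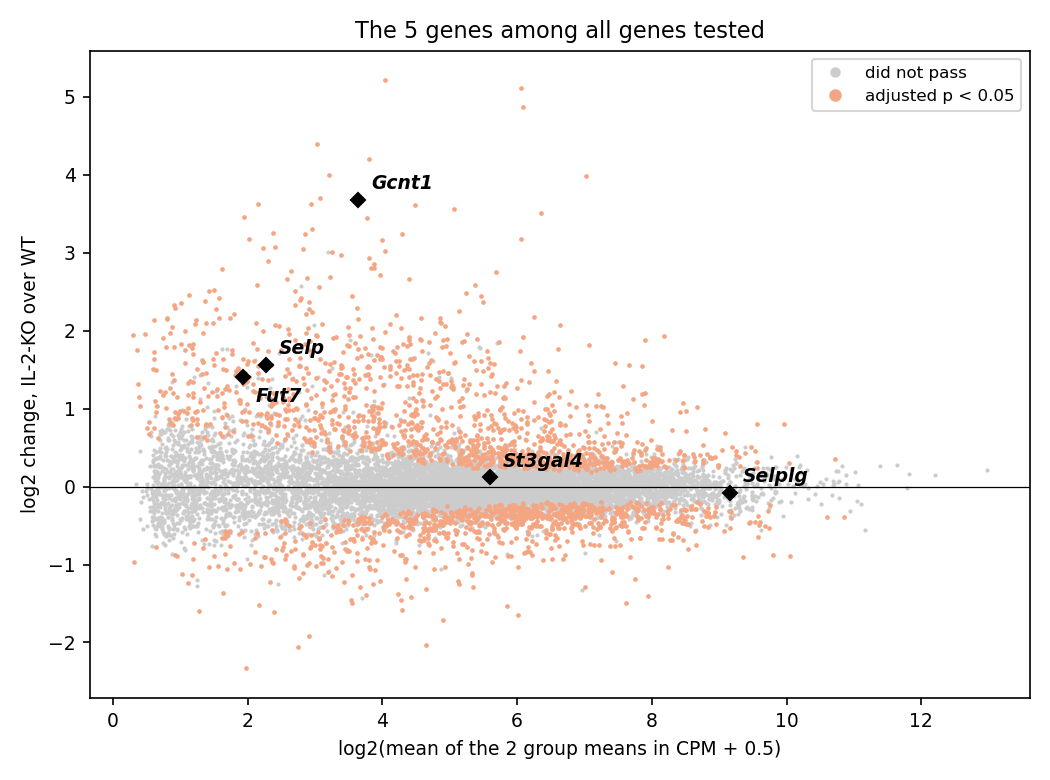
Each point is 1 of 11530 genes, with log2 of the mean of the group means in CPM + 0.5 on the x axis and the log2 change, IL-2-KO over WT, on the y axis; coloured points have a limma Benjamini-Hochberg adjusted p under 0.05. Gcnt1 lies near the upper edge at 3.68, Selp at 1.56 and Fut7 at 1.40, and St3gal4 and Selplg lie near 0 at higher levels.

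The windows around the starts of the 3 genes that rose are shown so that the motifs searched can be read in them; they are from the RefSeq promoter table (build GRCm38.p6, 250 bases before to 50 after a start, 5′ to 3′ on the gene's strand). The first listed window of each is given: chr1:164115014-164115313 on the plus strand for Selp, chr19:17372795-17373094 on the minus strand for Gcnt1 (1 of 3 windows) and chr2:25422992-25423291 on the plus strand for Fut7 (1 of 2). Capitals mark a match to the T-box motif TCACACC.
Selp: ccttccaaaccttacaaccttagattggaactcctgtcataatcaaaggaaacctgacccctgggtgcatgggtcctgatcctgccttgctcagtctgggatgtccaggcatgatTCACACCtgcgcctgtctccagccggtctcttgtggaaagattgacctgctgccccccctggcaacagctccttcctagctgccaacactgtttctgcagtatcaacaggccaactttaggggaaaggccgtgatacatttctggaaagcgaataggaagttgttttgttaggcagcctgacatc
Gcnt1: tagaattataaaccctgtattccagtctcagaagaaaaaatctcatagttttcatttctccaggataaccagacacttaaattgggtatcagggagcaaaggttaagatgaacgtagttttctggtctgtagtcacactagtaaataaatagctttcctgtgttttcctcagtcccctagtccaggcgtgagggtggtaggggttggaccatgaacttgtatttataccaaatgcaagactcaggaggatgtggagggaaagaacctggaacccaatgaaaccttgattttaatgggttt
Fut7: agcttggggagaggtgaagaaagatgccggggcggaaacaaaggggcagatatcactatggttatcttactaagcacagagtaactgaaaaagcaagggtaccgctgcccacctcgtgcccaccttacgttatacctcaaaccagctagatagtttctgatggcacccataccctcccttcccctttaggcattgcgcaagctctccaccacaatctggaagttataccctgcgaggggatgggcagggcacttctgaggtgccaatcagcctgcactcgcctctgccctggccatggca
Searched on both strands in the windows of Selp, Gcnt1, Fut7 and St3gal4 were the T-box motif TCACACC, the STAT motif TTCNNNGAA, the forkhead motif TGTTTAC and the KLF motif CCACACC, which shares the letters CACACC with the T-box motif. The 1 match was the T-box motif of Selp, whose first base lies at -135 from the start. Of 32851 windows in the table, 3.98% hold that motif, 8.3% the STAT motif, 3.65% the forkhead motif and 7.58% the KLF motif. Absence of a match says only that these letters are not in these windows. Selplg has no entry in the table.

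Selp, the gene of the selectin itself, rose to a low level. It lies on chromosome 1 at 164115264-164150026 (GRCm38, RefSeq annotation, Entrez 20344). Its values were 8.35, 5.73, 5.70 and 7.06 CPM in IL-2-KO replicates 1 to 4, against 1.74, 3.03, 1.63 and 1.51 CPM in WT replicates 1 to 4. The lowest IL-2-KO library stood above the highest WT library, which was replicate 2. Means were 6.71 ± 1.27 CPM in IL-2-KO and 1.98 ± 0.711 CPM in WT (SD, n = 4 each), a log2 change of 1.56 with a 95% interval of 1.08 to 2.05 (limma, Benjamini-Hochberg adjusted p = 8.69e-04). An exact two-sided permutation test gave p = 0.0286, the smallest that 70 assignments allow. The gene ranked 236 of 11530 by its rise. Behind these values stood 452 counts in IL-2-KO and 118 in WT, summed over 4 libraries each.

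Reads assigned to Selp may in part be those of neighbours, since its exons share 438 bases with Gm16548 and 186 with Gm16587 on the opposite strand and whether counting used strand is not stated in the sources used here. Platelet and megakaryocyte markers, of which 3 of 12 are listed (Itga2b, Itgb3 and Gp1ba), summed to between 20.7 and 31.3 CPM in IL-2-KO and between 21.9 and 32.7 CPM in WT. Itga2b, the platelet integrin chain, fell by 0.83 on the log2 scale in IL-2-KO (limma, Benjamini-Hochberg adjusted p = 0.0354). Endothelial markers, 5 of 11 listed, summed to between 180 and 210 CPM in IL-2-KO and between 195 and 222 CPM in WT, and 0 of the 4 tested passed in limma. The ranges of both sums overlapped between the groups. Single platelet genes differed more than their sum: 2 of 3 did not overlap between the groups, where 24.2% of all genes tested did not. The median log2 change of the 3 was -0.68. Most genes of both lists have no row, and the part of platelets or endothelial cells in the Selp rise was not tested. In the 4 libraries made from the most cells (IL-2-KO and WT replicates 1 and 2) the Selp change was 1.40 and missed the threshold (limma, Benjamini-Hochberg adjusted p = 0.0743).

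Sele, the endothelial E-selectin gene, did not pass. It averaged 2.45 ± 1.02 CPM in IL-2-KO and 2.90 ± 0.261 CPM in WT (SD, n = 4 each).

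Selplg, the gene of the protein scaffold, was the most abundant of the 5 genes and stood at like levels in both groups. It lies on chromosome 5 at 113817798-113832528 (Entrez 20345). Its values were 565, 594, 476 and 599 CPM in IL-2-KO, against 626, 562, 542 and 622 CPM in WT. The groups overlapped. The fold was 0.948 with a 95% interval of 0.820 to 1.10 (limma, Benjamini-Hochberg adjusted p = 0.609), so that the interval reaches neither a fall nor a rise of 1.5 times.

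Among the other scaffold genes, 1 of 4 tested rose and 0 fell. That is 25% passing, near the 19.2% of all genes tested that passed in either direction. Cd44, whose glycoform on leukocytes binds E-selectin, had 97.5, 102, 139 and 102 CPM in IL-2-KO and 70.01, 84.1, 69.2 and 68.4 CPM in WT. Every IL-2-KO library was above every WT library, and the rise was 1.499-fold (limma, Benjamini-Hochberg adjusted p = 0.00783). Spn, which encodes CD43, a mucin that carries core 2 chains on activated T cells, averaged 437 ± 42.0 CPM in IL-2-KO and 363 ± 35.8 CPM in WT (SD, n = 4 each), without overlap, and missed the threshold (limma, Benjamini-Hochberg adjusted p = 0.0764).

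Gcnt1, the enzyme that opens the core 2 branch, showed the largest change of the 5 genes and ranked 9 of 11530 by its rise. It lies on chromosome 19 at 17326141-17372844 (Entrez 14537). Its values were 22.8, 22.2, 35.3 and 10.3 CPM in IL-2-KO, against 2.10, 1.52, 1.32 and 0.301 CPM in WT. The lowest IL-2-KO library, replicate 4, was 4.93 times the highest WT library, replicate 1. Means were 22.7 ± 10.2 CPM in IL-2-KO and 1.31 ± 0.748 CPM in WT (SD, n = 4 each). The log2 change was 3.68 with a 95% interval of 2.76 to 4.60, or 6.79-fold to 24.2-fold (limma, Benjamini-Hochberg adjusted p = 2.82e-04), and the exact two-sided permutation p was 0.0286.

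The depth behind the WT level of Gcnt1 was small. Its counts were 341, 369, 657.25 and 185 in IL-2-KO libraries and 35, 18, 23 and 5 in WT libraries. The 12.8-fold change is on the log2(CPM + 0.5) scale, which understates changes of low genes, and the ratio of the plain means was 17.3. The highest IL-2-KO value was in replicate 3, 1 of the libraries with high myeloid marker sums. With IL-2-KO replicate 3 and WT replicate 2 both left out, a choice made after the data were seen, limma gave log2 changes of 3.52 for Gcnt1 (Benjamini-Hochberg adjusted p = 0.00131), 1.82 for Selp (3.84e-04) and 1.48 for Fut7 (0.0352).

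No other core 1 or core 2 gene passed in the main fit. C1galt1, which makes the core 1 chain, had 35.0, 86.8, 42.6 and 90.8 CPM in IL-2-KO and 62.7, 62.0, 70.4 and 74.9 CPM in WT, so that IL-2-KO replicates 1 and 3 lay below every WT library and replicates 2 and 4 above (limma, Benjamini-Hochberg adjusted p = 0.663). Gcnt4, another core 2 enzyme, was under the filter and untested in the main fit. It had 0.819, 0.0603, 0.766 and 0.186 CPM in IL-2-KO and 1.68, 1.39, 1.61 and 0.904 CPM in WT, so that every IL-2-KO library was below every WT library. In the limma fit without a filter, which included Gcnt4, 5 pathway genes passed as lower, against 4 in the main fit.

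St3gal1, the sialyltransferase that competes with Gcnt1, had 183, 211, 171 and 200 CPM in IL-2-KO and 268, 196, 247 and 243 CPM in WT. Means were 191 ± 17.6 CPM in IL-2-KO and 238 ± 30.3 CPM in WT (SD, n = 4 each), and the gene missed the threshold (log2 change -0.31, limma, Benjamini-Hochberg adjusted p = 0.0648). It passed as lower without WT replicate 2 (limma, Benjamini-Hochberg adjusted p = 0.0135). The balance of the pair was read within each library. There were 8.02, 9.49, 4.85 and 19.3 CPM of St3gal1 for each CPM of Gcnt1 in IL-2-KO, against 128, 129, 187 and 806 in WT. Every IL-2-KO library had a smaller excess of St3gal1 than any WT library. The log2 ratio of Gcnt1 over St3gal1 averaged -3.20 ± 0.825 in IL-2-KO and -7.80 ± 1.26 in WT (SD, n = 4 each), a difference of 4.60 (exact two-sided permutation p = 0.0286, the smallest possible). Gcnt1 alone already separated the groups, its lowest IL-2-KO library being 4.93 times its highest WT library. St3gal1 lay between 171 and 268 CPM in all 8 libraries, so this p restates the separation of Gcnt1 and is no further result. The ratio has no pseudocount, and WT replicate 4 rests on 5 counts of Gcnt1. The difference was 3.98 without that library, 3.99 with a pseudocount of 0.5 and 3.88 in the 4 libraries made from the most cells. These are ratios of transcript values not divided by length, and their difference between the groups does not depend on length.

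**Figure D3:**
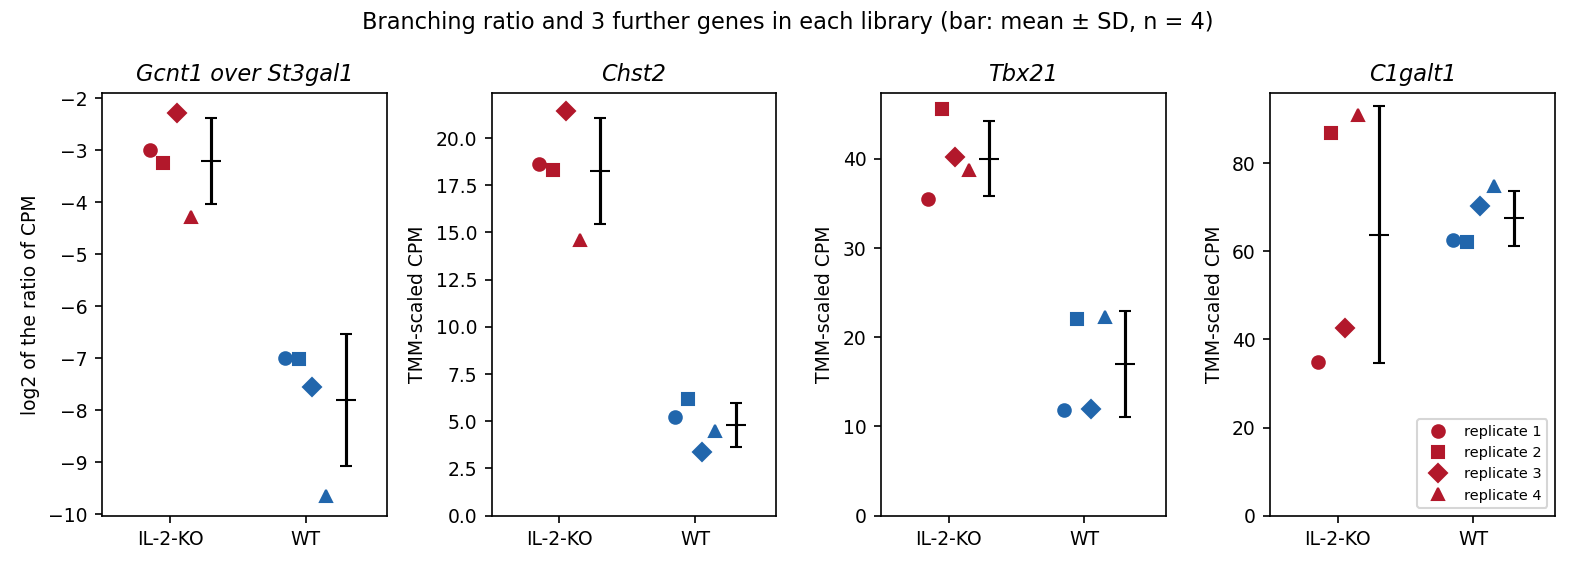
The log2 ratio of Gcnt1 over St3gal1 and the TMM-scaled CPM of Chst2, Tbx21 and C1galt1 in each library, IL-2-KO on the left and WT on the right of each panel, with 1 symbol per replicate number and the mean ± SD (n = 4). The ratio lies between -4.27 and -2.28 in IL-2-KO and between -9.65 and -7.00 in WT, and the C1galt1 values of IL-2-KO fall on both sides of WT.

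Fut7, which adds the fucose that completes sialyl Lewis X, rose with less certainty. It lies on chromosome 2 at 25422351-25426374 (Entrez 14347). Its values were 6.30, 6.21, 5.86 and 2.01 CPM in IL-2-KO, against 1.86, 2.36, 0.806 and 1.21 CPM in WT. IL-2-KO replicates 1 to 3 stood above every WT library, and IL-2-KO replicate 4 stood below WT replicate 2. Means were 5.09 ± 2.06 CPM in IL-2-KO and 1.56 ± 0.688 CPM in WT (SD, n = 4 each). The log2 change was 1.40 with a 95% interval of 0.60 to 2.20 (limma, Benjamini-Hochberg adjusted p = 0.0227), and the exact two-sided permutation p was 0.0571.

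The Fut7 call did not hold in every fit that left out 1 library. It was lost when IL-2-KO replicate 1, 2 or 3 or WT replicate 3 or 4 was left out, with limma Benjamini-Hochberg adjusted p = 0.0575, 0.0609, 0.0522, 0.0746 and 0.0671 in that order. These 5 fits also called fewer genes higher over all genes, 846 to 1157, against 1285 with all 8 libraries. The log2 change stayed between 1.20 and 1.75 whichever library was left out. The counts behind it summed to 342 in IL-2-KO and 93 in WT. IL-2-KO replicate 4 was also the lowest of its group for Gcnt1 and was made from the fewest cells. With log10 of the sorted cell number as a covariate, the log2 change was 1.52 for Fut7 (limma, Benjamini-Hochberg adjusted p = 0.00611) and 3.78 for Gcnt1 (4.07e-04). The other fucosyltransferase genes tested were 3 (Fut8, Fut10 and Fut11), and 0 of these passed.

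St3gal4, which caps the branch with sialic acid, stood at like levels in both groups. It lies on chromosome 9 at 35046576-35116864 (Entrez 20443). Its values were 50.8, 53.4, 44.9 and 50.6 CPM in IL-2-KO, against 46.3, 41.7, 46.5 and 49.3 CPM in WT. The groups overlapped, and the fold was 1.09 with a 95% interval of 0.952 to 1.24 (limma, Benjamini-Hochberg adjusted p = 0.370). Its exons share 412 bases with 4930581F22Rik on the opposite strand.

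Among the 8 other sialyltransferase genes, 2 rose and 0 fell. That is 25% passing, near the 19.2% of all genes tested that passed in either direction. St3gal2, which caps core 1 chains and glycolipids, averaged 8.51 CPM in IL-2-KO and 5.57 CPM in WT, 1.49-fold higher (limma, Benjamini-Hochberg adjusted p = 0.0159). St6galnac4, which adds a further sialic acid to capped core 1, averaged 66.3 CPM in IL-2-KO and 52.0 CPM in WT, 1.28-fold higher (limma, Benjamini-Hochberg adjusted p = 0.0296). The St3gal2 call was lost without WT replicate 4 (limma, Benjamini-Hochberg adjusted p = 0.0584) and under quantile normalization (log2 change 0.41, adjusted p = 0.0699). The St6galnac4 call was lost without IL-2-KO replicate 2 or 4 or WT replicate 2, 3 or 4 (limma, Benjamini-Hochberg adjusted p up to 0.0866). St3gal6, another enzyme of sialyl Lewis X synthesis, had 45.2, 57.9, 56.8 and 102 CPM in IL-2-KO and 44.1, 54.8, 45.3 and 54.6 CPM in WT and did not pass (limma, Benjamini-Hochberg adjusted p = 0.304); its exons share 1603 bases with Dcbld2 on the opposite strand.

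Levels of the 5 genes can be set beside each other only per exon length, taken as the union of exons in the GENCODE annotation. In CPM per kilobase, Selplg averaged 131 ± 13.4 in IL-2-KO and 138 ± 9.95 in WT, and St3gal4 averaged 17.1 ± 1.23 in IL-2-KO and 15.7 ± 1.07 in WT (SD, n = 4 each). These genes came first and second in all 8 libraries. Below them, Gcnt1 averaged 3.94 ± 1.77 in IL-2-KO and 0.227 ± 0.130 in WT, Fut7 2.16 ± 0.876 in IL-2-KO and 0.661 ± 0.292 in WT, and Selp 1.52 ± 0.287 in IL-2-KO and 0.448 ± 0.161 in WT. Gcnt1 was the highest of these 3 in 4 of 4 IL-2-KO libraries and the lowest in 4 of 4 WT libraries. Fut7 and Selp were neighbours whose order was not the same in every library, Fut7 being above Selp in 3 of 4 IL-2-KO and 3 of 4 WT libraries. The order of the levels differed between the groups in the place of Gcnt1.

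**Figure D4:**
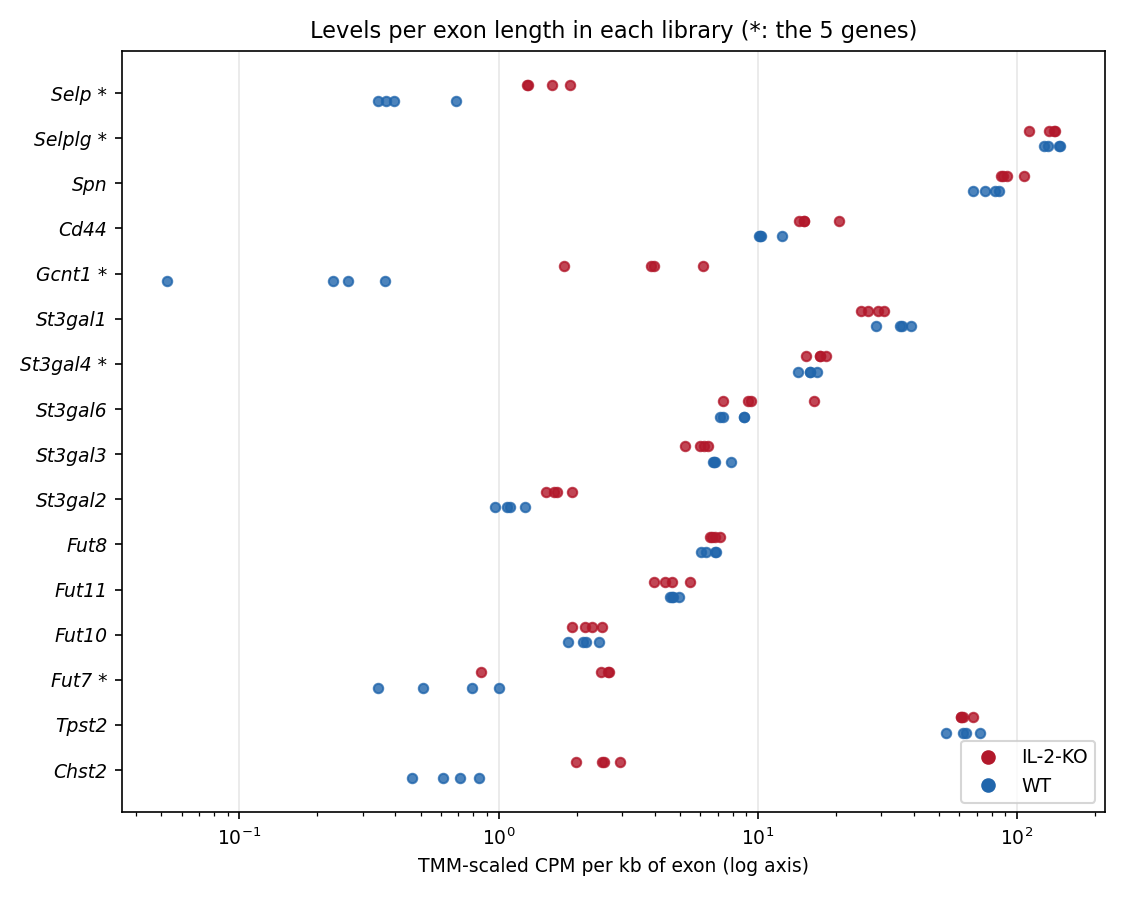
CPM per kilobase of annotated exon on a log axis for the 5 genes and other genes of the pathway, 1 point per library, IL-2-KO above WT. Of the 5, Selplg is highest (mean 131 for IL-2-KO, 138 for WT) and Gcnt1 differs most between the groups (mean 3.94 for IL-2-KO, 0.227 for WT).

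The other genes of selectin ligand synthesis moved in both directions. Of 75 such genes 55 are in the table and 54 were tested, of which 8 rose, 4 fell and 42 did not pass, with a median log2 change of 0.05. The 12 that passed are 22.2% of those tested, where 19.2% of all genes tested passed. By role, genes that passed in either direction were 3 of 7 for O-GalNAc initiation (42.9%), 2 of 6 for lactosamine extension and 2 of 6 for sulfotransferases (33.3% each), and 2 of 15 for nucleotide sugar supply (13.3%), shares that rest on few genes each. In the 4 libraries made from the most cells, Gcnt1, Fut7, Chst2 and Eomes kept their limma calls, and the other calls among the 5 genes and the pathway and transcription factor genes named here were lost.

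Of 7 O-GalNAc initiation genes, whose enzymes put the first sugar on the protein, 1 rose and 2 fell. Galnt6 had 316, 275, 232 and 264 CPM in IL-2-KO and 525, 433, 469 and 461 CPM in WT, with every IL-2-KO library below every WT library (log2 change -0.80, limma, Benjamini-Hochberg adjusted p = 5.03e-04); its exons share 441 bases with Galnt6os on the opposite strand. Galnt12 fell to 64.5 CPM in IL-2-KO, against 83.7 CPM in WT (limma, Benjamini-Hochberg adjusted p = 0.0125). Galnt7, which acts on partly glycosylated proteins, rose to 134 CPM in IL-2-KO, against 108 CPM in WT (limma, Benjamini-Hochberg adjusted p = 0.0146), and narrowly missed the threshold without WT replicate 4 (0.0501).

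Of 6 lactosamine extension genes 2 rose and 0 fell. B4galt5, a galactosyltransferase best known for making lactosylceramide, had 109, 100, 120 and 100 CPM in IL-2-KO and 69.9, 67.5, 75.2 and 71.6 CPM in WT, without overlap (1.505-fold, limma, Benjamini-Hochberg adjusted p = 6.32e-04). B3gnt5, which acts on glycolipids, averaged 39.5 CPM in IL-2-KO and 27.3 CPM in WT (limma, Benjamini-Hochberg adjusted p = 0.0280). Its call was lost without IL-2-KO replicate 2 or 4 or WT replicate 1, 2 or 3 (limma, Benjamini-Hochberg adjusted p up to 0.0924), and its lowest IL-2-KO library was only just above its highest WT library, at 31.2 and 31.1 CPM.

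Of 6 sulfotransferase genes and their donors 1 rose and 1 fell. Chst2, a sulfotransferase known for making selectin ligands in lymph node vessels, had 18.6, 18.3, 21.5 and 14.6 CPM in IL-2-KO and 5.21, 6.15, 3.397 and 4.46 CPM in WT. The groups did not overlap, and the rise was 3.57-fold (limma, Benjamini-Hochberg adjusted p = 1.54e-04). Slc35b3, a transporter of the sulfate donor, fell to 120 CPM in IL-2-KO, against 161 CPM in WT (limma, Benjamini-Hochberg adjusted p = 0.00421). Tpst2, which sulfates tyrosines such as those P-selectin needs on PSGL-1, averaged 176 ± 9.50 CPM in IL-2-KO and 175 ± 21.8 CPM in WT (SD, n = 4 each).

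Of 15 genes of nucleotide sugar supply 1 rose and 1 fell. Slc35a1, the transporter that supplies sialic acid, fell to 49.5 CPM in IL-2-KO, against 58.2 CPM in WT (limma, Benjamini-Hochberg adjusted p = 0.0420). That call was lost in 7 of 8 fits that left out 1 library, all but the one without WT replicate 2, with adjusted p up to 0.1402 (limma, Benjamini-Hochberg), and with the cell number covariate (0.0518).

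**Figure D5:**
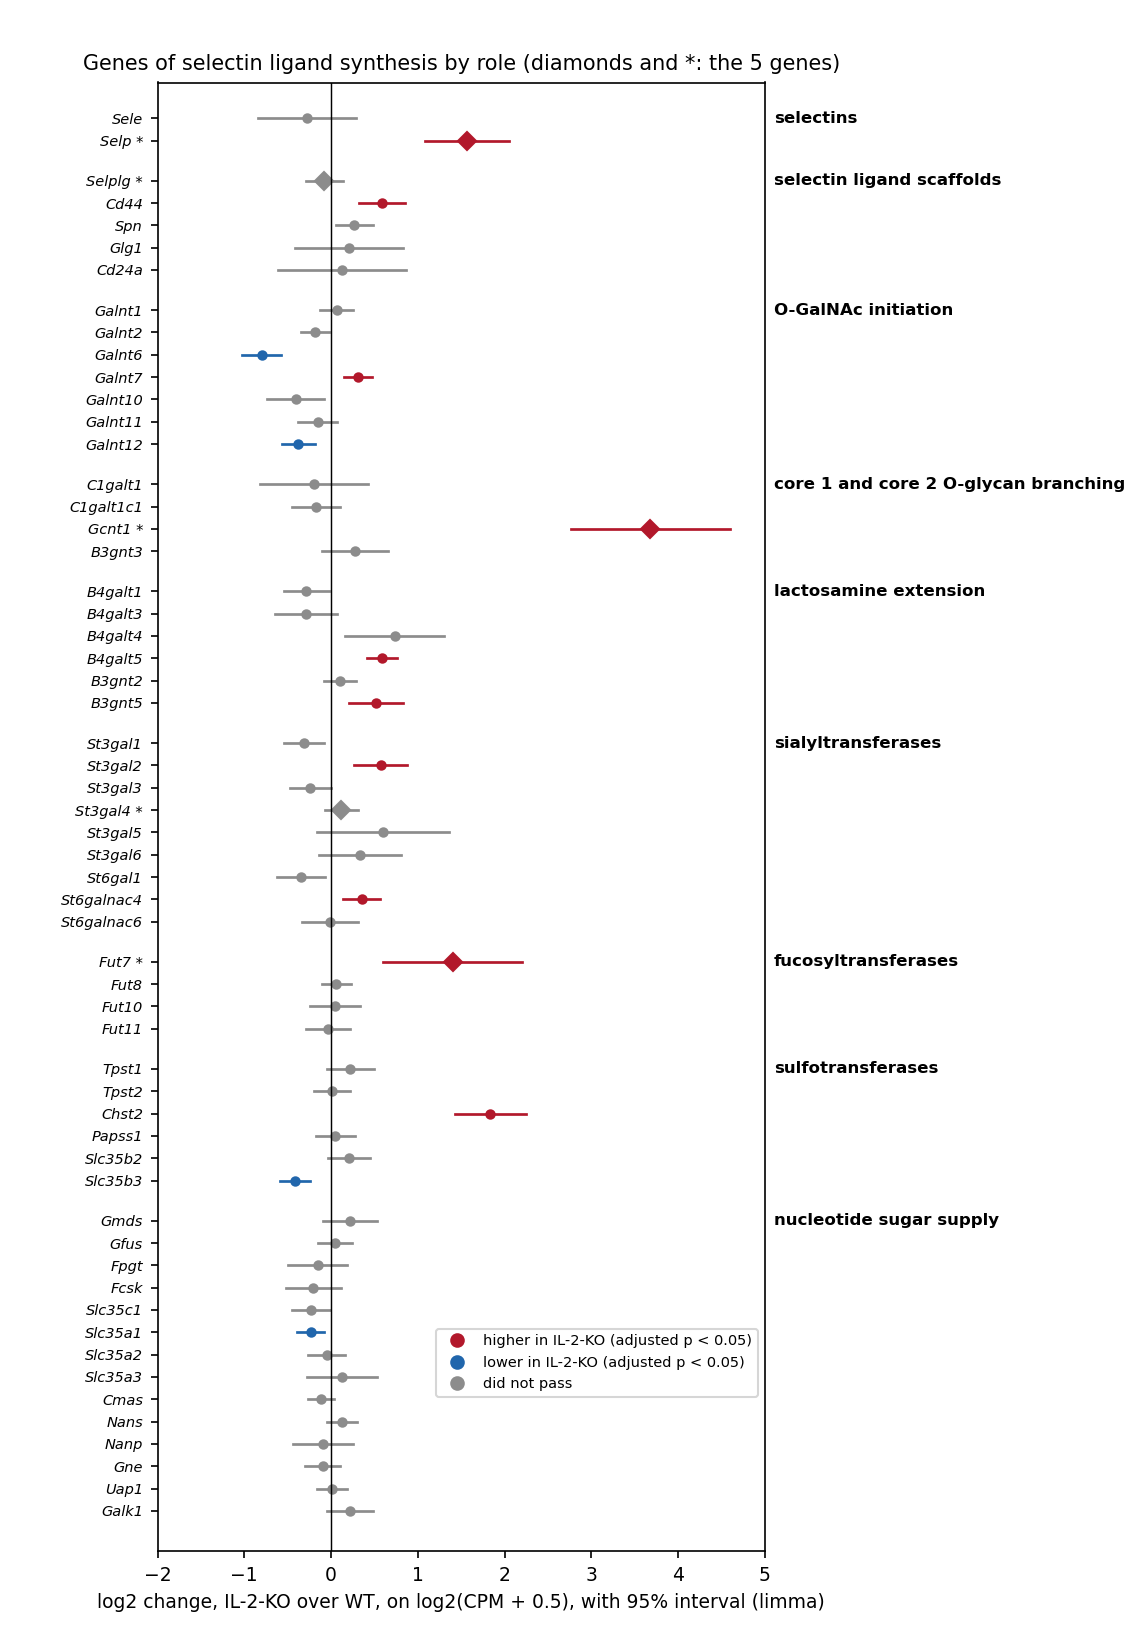
Log2 change, IL-2-KO over WT, with its 95% interval from limma for tested genes of selectins, scaffolds and ligand synthesis, grouped by role, with diamonds for the 5 genes. Gcnt1 at 3.68, Chst2 at 1.84, Selp at 1.56 and Fut7 at 1.40 lie farthest to the right, and Galnt6 at -0.80 farthest to the left.

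Of 10 genes of transcription factors listed as regulators of these genes in T cells, 2 rose and 1 fell. That is 30% passing in either direction, where 19.2% of all genes tested passed, and the list was written with earlier results known. Tbx21, which encodes T-bet, known to induce selectin ligand synthesis in T cells, had 35.5, 45.6, 40.2 and 38.8 CPM in IL-2-KO and 11.9, 22.0, 11.9 and 22.3 CPM in WT. Every IL-2-KO library was above every WT library, and the rise was 2.41-fold (limma, Benjamini-Hochberg adjusted p = 0.00285). Eomes, the related T-box factor, averaged 292 ± 75.3 CPM in IL-2-KO and 131 ± 20.6 CPM in WT (SD, n = 4 each), 2.18-fold higher (limma, Benjamini-Hochberg adjusted p = 0.00184). Bach2, a repressor of effector genes, fell to 119 CPM in IL-2-KO, against 147 CPM in WT (limma, Benjamini-Hochberg adjusted p = 0.0195). Its call was lost without IL-2-KO replicate 2, WT replicate 3 or WT replicate 4 (limma, Benjamini-Hochberg adjusted p = 0.0502, 0.0722 and 0.0564 in that order). Klf2, a factor of quiescent T cells, averaged 209 ± 44.7 CPM in IL-2-KO and 282 ± 43.7 CPM in WT and did not pass (limma, Benjamini-Hochberg adjusted p = 0.0725), though it passed as lower without IL-2-KO replicate 3 (0.0390).

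Within the groups, the 5 genes did not vary as 1 unit. After the group means were removed, log2 values of Gcnt1 and Fut7 correlated at 0.67 over 8 libraries, Selplg and St3gal4 at 0.77, Selp and Fut7 at 0.29 and Selp and Gcnt1 at 0.09. These are descriptions over libraries that share depth and composition. Genes among the 2 most like each one, out of up to 9731 candidates with a mean of at least 5 CPM, were Adam2 (0.960) and Ldhb (0.955) for Gcnt1, Snrpb (0.979) and Pabpc4 (0.968) for Selp, Armcx3 (0.976) for Fut7, Cdc42se1 (0.991) and Oxct1 (0.978) for Selplg, and Nacc1 (0.983) and Zer1 (0.980) for St3gal4. Picked as the highest of so many candidates over 8 libraries, correlations of this size can arise among unrelated genes, and no test was made.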

How the data were processed

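Each value is a signal on a linear scale, deposited by the authors as counts per 1e6 after TMM scaling (title of the table). Per the submitters' processing notes, tools were R 3.4.3, limma 3.34.9 and featureCounts, with builds named mm10 and GRCm38; the aligner and strand setting are not given in the sources used here. Of 11723 Entrez identifiers 11651 matched a symbol. These are not raw counts (54.6% to 65.0% of the values under 20 CPM were whole reads within 0.001 read, the rest fractions), so limma 3.58.1 in R 4.3.3 with a mean-variance trend was fitted to log2(CPM + 0.5) over genes with at least 1 CPM in at least 4 libraries, with Benjamini-Hochberg adjustment over all 11530. Counts quoted are those implied by the value steps. Single values were tested by exact permutation of 70 assignments. The main tests used no pairing. The members, gene lists and promoter motifs were chosen with earlier results of these data known. Named were the 5 genes, the pathway genes that passed (at most 4 per list), a few fixed genes and the 2 most alike of each member. Alternatives tried were other pseudocounts, filters, scalings, weights, covariates, left-out libraries and a replicate block. Fut4 and other genes of the lists without a row were not analysed here, and some genes that the naming rule picks are not reported here.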

Additional observations from a re-analysis of the deposited data

Results flagged for a closer look

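Within groups of 4 libraries, a library was singled out where its gap to the nearest of the others exceeded Dixon's 95% critical value for its share of the group's range; 52 groups were tested, 6 stood out, and chance gives about 1 in 20. Fut7 was 2.01 CPM in IL-2-KO replicate 4, against 5.86 to 6.30 CPM in the other IL-2-KO libraries. Selp was 3.03 CPM in WT replicate 2, against 1.51 to 1.74 CPM in the other WT libraries. Cd44 was 139 CPM in IL-2-KO replicate 3, against 97.5 to 102 CPM in the others of its group, and 84.1 CPM in WT replicate 2, against 68.4 to 70.01 CPM in the others of its group. Bach2 was 133 CPM in IL-2-KO replicate 3, against 112 to 116 CPM in the others. Tpst2 was 189.7 CPM in IL-2-KO replicate 1, against 169.7 to 172 CPM in the others.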

How the results depend on the processing

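Gcnt1, Selplg and St3gal4 kept their direction and side of the threshold under all 21 alternatives each, and Selp under 20 of 21. Without each library in turn, log2 changes ranged from 3.33 to 4.00 for Gcnt1, 1.46 to 1.75 for Selp, 1.20 to 1.75 for Fut7 (5 calls lost), -0.12 to -0.0023 for Selplg and 0.07 to 0.17 for St3gal4, and the log2 ratio difference of Gcnt1 over St3gal1 from 3.98 to 4.96. Over all genes, 846 to 1295 rose and 439 to 938 fell, and in the pathway 4 to 7 rose and 3 to 5 fell. Genes that rose numbered 846 without WT replicate 3, genes that fell 562, 439 and 466 without WT replicate 1, 3 and 4, and pathway genes that rose 5, 5, 5 and 4 without IL-2-KO replicate 2 and WT replicates 2, 3 and 4. In the 4 libraries made from the most cells, 322 genes rose and 62 fell, 1 pathway gene rose and 0 fell (limma), and Selp was 1.40; fewer samples entered that fit. Array weights gave 2240 genes higher and 2119 lower, and 12 pathway genes higher and 10 lower. Of the named genes, Klf2 and St3gal1 then passed as lower and Spn as higher (limma, Benjamini-Hochberg adjusted p = 7.41e-04, 0.0108 and 0.00563 in that order). The cause was not tested. The exact permutation p for Fut7 was 0.0571 (log2 change 1.40). With a filter of at least 5 CPM Fut7 was filtered out. The replicate numbers did not pair the samples (same-number correlations 0.0842, -0.53, -0.402 and 0.394); a replicate block gave 486 genes lower and 5 pathway genes higher, kept the calls of Gcnt1, Selp and Fut7, lost those of St3gal2 (0.0571), St6galnac4 (0.0709) and Slc35a1 (0.121), and gave the ratio an exact p = 0.125, the smallest that pairing allows. Tpst2 reversed, with -0.0137 under a median shift, and ranged from -0.0620 to 0.0850 without each library in turn. Low counts in WT limit Gcnt1, Fut7 and Selp.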

Other observations

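Among the IL-2-KO libraries, replicates 2 and 4 were higher than replicates 1 and 3 by 1.19 (log2) for C1galt1 and by 1.18 for Glg1, a Golgi protein that binds E-selectin. For Gcnt1 and Fut7 they were lower, at -0.88 and -0.68, and for Selp the difference was -0.11. Over 11324 genes with a length, the same difference correlated with exon length at a Spearman rho of 0.414. These replicates carry no label that separates them, so the values are a description.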
